A study of Mus musculus with 40 samples.

Results

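The genes of nitric oxide production were followed across mouse cardiac fibroblasts that had received a ligand and had been depleted of TAK1 or not. They were the nitric oxide synthases *Nos2* and *Nos3*, the tetrahydrobiopterin synthesis genes *Gch1*, *Pts* and *Spr*, the citrulline-to-arginine genes *Ass1* and *Asl* and the arginine transporter *Slc7a2*. They were listed by name, with earlier results of these data known, and these 8 were found among the 55414 genes of the count table and among the 25210 genes with at least 10 counts over the 40 libraries. Cardiac fibroblasts of TAK1fl/fl mice (C57BL/6J background), in which LoxP sites flank an exon of *Map3k7*, the gene for TAK1, were grown in medium with serum and bFGF and used at passage 1. They were transduced with an adenovirus for the control gene LacZ or for Cre recombinase (iCre), were serum-starved and then received no ligand (Con), bFGF (20 ng/ml), TGFβ (TGF in the labels; 10 ng/ml), IL-1β (IL1b; 15 ng/ml) or TNFα (TNFa; 10 ng/ml) for 24 h. LacZ and iCre with each of these 5 conditions made 10 groups of 4 replicates. The floxed allele and an adenovirus were thus common to all groups, and no group without virus was sequenced among the samples used here. A legend of the study calls the replicates biological and male. The labels do not say whether each came from a separate animal, so that p-values measure only the spread between these samples.

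Nitric oxide synthases make nitric oxide and citrulline from arginine. *Nos2*, the inducible form, is known for its induction by inflammatory cytokines, and *Nos3* is the form of endothelium. All forms need the cofactor tetrahydrobiopterin, which is built from GTP by GTP cyclohydrolase (*Gch1*, the rate-limiting step), 6-pyruvoyltetrahydropterin synthase (*Pts*) and sepiapterin reductase (*Spr*). Arginine enters cells through cationic transporters such as CAT-2 (*Slc7a2*) and is regenerated from citrulline by argininosuccinate synthase (*Ass1*) and argininosuccinate lyase (*Asl*).

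The gene counts of a library added up to 25360947 to 66160732 (median 36183962). Values are given as CPM, counts scaled to a common library size with TMM over the 40 libraries, and groups were compared with edgeR's quasi-likelihood test, 4 libraries against 4, with an adjusted p of at most 0.05 as the threshold. These tests did not pair libraries of the same replicate number. Values given with the block come from the same test with the replicate number as a covariate, which pairs them. SE is the standard error of a log2 fold change. In bulk RNA, fewer cells of a type and less RNA per cell cannot be told apart. Replicate 2 stood apart in each group: it was the library farthest from its group mean in 10 of 10 groups over 13090 genes (root mean square of 0.42 to 0.54 on the log2 scale, against 0.23 to 0.47 for the others). Leaving it out kept 38 of the 41 calls made on the 8 genes, lost 3 and added 10. *Map3k7*, counted over all its exons and so including transcripts of the recombined allele, was at 144 to 159 CPM in LacZ Con and at 123 to 133 CPM in iCre Con libraries. The log2 difference of iCre from LacZ was −0.28 without ligand (adjusted p = 0.126), −0.40 with bFGF (adjusted p = 0.308), −0.67 with TGFβ (adjusted p = 0.000984), −0.82 with IL-1β (adjusted p = 0.000321) and −0.71 with TNFα (adjusted p = 0.000803). All 10 fibroblast markers were detected, and their summed level lay between 15351 and 69714 CPM. It was lower in iCre than in LacZ libraries with TNFα (15351 to 23387 against 25795 to 34599 CPM) and with IL-1β (22845 to 35690 against 36618 to 69714 CPM), with no overlap. Collagens made up most of the sum. Of the other markers with TNFα, *Pdgfra*, *Postn*, *Tcf21* and *Dcn* had lower means in iCre too (*Pdgfra* 1602 to 2537 CPM in LacZ against 840 to 1483), *Ddr2* had means of 544 and 547 CPM, and *Vim* and *Thy1* went the opposite way, *Vim* being at 2126 to 3320 CPM in LacZ against 3956 to 5424 in iCre and *Thy1* at 299 to 467 against 649 to 850 CPM. Of 3 cardiomyocyte markers 2 had enough counts (*Tnnt2* and *Actn2*), and their summed level was 14.7 to 110 CPM in LacZ Con, 0.299 to 1.67 with IL-1β and 0.944 to 6.65 with TNFα. That of 3 pericyte and smooth muscle markers was 98.1 to 549 CPM in LacZ Con and 660 to 1165 with TGFβ, and with TNFα 71.7 to 368 in LacZ and 301 to 1153 in iCre libraries. Leukocyte markers, of interest because macrophages are a known source of *Nos2*, were all detected too (8 of 8). Their summed level was 59.8 to 150 CPM in LacZ Con, 76.7 to 177 with IL-1β and 57 to 163 with TNFα, which overlapped, and 33.8 to 85.9, 44.5 to 119 and 43 to 120 CPM in the iCre groups of the same ligands, each overlapping its LacZ group. The part of all these markers in the results below was not tested. In the 12 iCre libraries that had TNFα, IL-1β or TGFβ, genes of higher GC content had higher counts (slopes of 0.20 to 0.34 log2 units per 10% GC, against −0.25 to 0.00 in the other 28 libraries), and results of iCre against LacZ whose call a correction for this changed are given with the corrected value.

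*Nos2* (ENSMUSG00000020826; GRCm38 chr11:78920787-78960254, plus strand) was near zero in fibroblasts without ligand and rose with IL-1β and TNFα. In LacZ Con libraries it was at 0, 0.22, 0.0887 and 0.0581 CPM. With IL-1β it was at 205, 362, 373 and 489 CPM, and with TNFα at 4.44, 25.2, 20.5 and 10.7 CPM. The 3 groups did not overlap, and the lowest IL-1β library was above the highest TNFα library. The difference between IL-1β and TNFα was 4.55 on the log2 scale (SE 0.50, adjusted p = 0.00046), or 23.5-fold. With bFGF (0.0598 to 0.302 CPM) and TGFβ (0 to 0.306 CPM) *Nos2* stayed within or close to the range of Con, and neither difference passed the test.

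In iCre fibroblasts IL-1β still raised *Nos2*, but to far lower levels, and TNFα left it near the Con libraries. It was at 0.0655, 0, 0.0199 and 0.0695 CPM in iCre Con, at 7.2, 6.33, 9.12 and 15.2 CPM with IL-1β and at 0.0509, 0.333, 0.0389 and 0.0649 CPM with TNFα. The IL-1β libraries lay above all Con libraries (log2 fold change 7.97, SE 0.49, adjusted p = 3.24e-06), while those with TNFα overlapped with Con (1.74, 95% interval −0.24 to 3.72, adjusted p = 0.182). Against LacZ, *Nos2* in iCre fibroblasts was 37.7-fold lower with IL-1β (log2 difference −5.26, SE 0.36, adjusted p = 4.64e-05) and 125-fold lower with TNFα (−6.90, SE 0.73, adjusted p = 0.000273). The TNFα mean in iCre rested on 20 counts, 14 of them in replicate 2, and without that replicate the difference was −7.82 (adjusted p = 0.000286; −6.35 without replicate 3). The gap between IL-1β and TNFα within iCre fibroblasts was 6.23 on the log2 scale (adjusted p = 0.00148, and 0.0638 without replicate 3). Whether the ligand effect itself differed between LacZ and iCre was tested as an interaction over 16 libraries, and for *Nos2* this was estimated with wide intervals. It was −3.91 for IL-1β (95% interval −7.65 to −0.17, adjusted p = 0.225) and −5.57 for TNFα (−10.47 to −0.66, adjusted p = 0.121), and for TNFα the adjusted p was 0.0105 with the replicate number as a block. DESeq2 called both interactions of *Nos2* (adjusted p = 0.000255 and 8.49e-05), while the other alternatives gave adjusted p-values of 0.113 to 0.447 for IL-1β and 0.0105 to 0.405 for TNFα. With bFGF, 25 counts in LacZ stood against 3 in iCre libraries, a ratio of 9.63 with a counting interval of 2.94 to 49.8, and the adjusted p was 0.26, or 0.038 with the block.

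**Figure D1:**
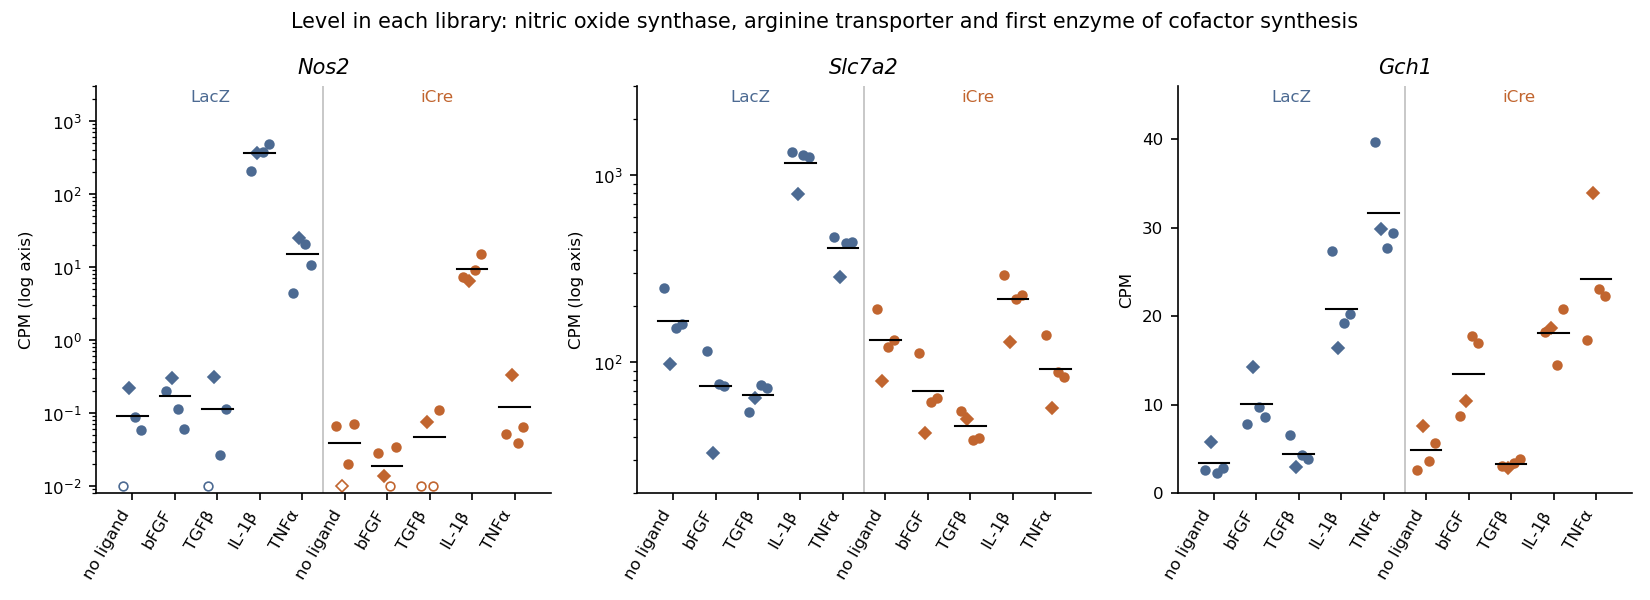
*Nos2*, *Slc7a2* and *Gch1* in each library, by virus and ligand, in TMM-normalised CPM (log axis for *Nos2* and *Slc7a2*, linear axis for *Gch1*). Points are libraries, diamonds are replicate 2, black bars are group means and open symbols at the bottom are libraries with 0 counts; *Nos2* and *Slc7a2* are highest in LacZ libraries with IL-1β, whereas *Gch1* is raised by IL-1β and TNFα with either virus.

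*Nos3* (ENSMUSG00000028978; chr5:24364810-24384474, plus strand) was at the limit of detection. It had 357 counts over the 40 libraries, at most 22 in any of them, and lay between 0.0339 and 0.639 CPM. Neighbouring groups overlapped throughout the order of their means, from 0.123 CPM in iCre Con to 0.347 CPM in LacZ Con. *Nos3* passed the test in none of the 19 comparisons. With the replicate block it passed for bFGF (log2 fold change −1.30, adjusted p = 0.0462) and TNFα (−1.43, adjusted p = 0.022) in LacZ fibroblasts and for the TNFα interaction (2.56, adjusted p = 0.027). The defining markers of endothelium were present at low levels (*Pecam1*, 0.0678 to 1.32 CPM), and their summed level was 25.4 to 26.9 CPM in LacZ Con, 12.7 to 16.8 with bFGF, 7.09 to 9.4 with TGFβ, 7.28 to 10.2 with IL-1β and 9.78 to 17.1 with TNFα, all below LacZ Con with no overlap. In iCre Con it was 11.5 to 19.7 and with TNFα 11.1 to 17.5 CPM, and its part in the *Nos3* values was not tested. *Nos3* overlaps *Atg9b* on the opposite strand. Whether reads were counted by strand is not given in the sources used here, so that reads of the overlapping genes cannot be told apart, and the same holds for *Slc7a2* with a lincRNA. *Gch1* overlaps the processed pseudogenes *Gm18811*, on its own strand, and *Gm49134*, on the opposite strand.

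*Gch1* (ENSMUSG00000037580; chr14:47153895-47189413, minus strand), which opens tetrahydrobiopterin synthesis, rose with IL-1β and TNFα under both viruses. In LacZ libraries it was at 2.55, 5.73, 2.27 and 2.88 CPM in Con, at 27.3, 16.4, 19.2 and 20.2 CPM with IL-1β and at 39.7, 29.8, 27.7 and 29.4 CPM with TNFα. In iCre libraries it was at 2.55, 7.53, 3.63 and 5.6 CPM in Con, at 18.2, 18.7, 14.5 and 20.8 CPM with IL-1β and at 17.3, 33.9, 23.1 and 22.3 CPM with TNFα. The cytokine groups lay above their Con groups with no overlap under either virus, while LacZ and iCre libraries with the same cytokine overlapped. The rise was 6.19-fold with IL-1β (log2 fold change 2.65, SE 0.28, adjusted p = 0.000259) and 9.44-fold with TNFα (3.25, SE 0.28, adjusted p = 7.45e-05) in LacZ fibroblasts. In iCre fibroblasts it was 3.74-fold (1.93, SE 0.29, adjusted p = 0.0023) and 5-fold (2.36, SE 0.33, adjusted p = 0.000823). The difference of iCre from LacZ did not pass the test with IL-1β (−0.22, 95% interval −0.60 to 0.16, adjusted p = 0.43) or TNFα (−0.37, −0.82 to 0.08, adjusted p = 0.207), nor did the interactions with IL-1β (−0.73, −1.63 to 0.17) and TNFα (−0.89, −1.85 to 0.06). Without replicate 2, *Gch1* with TNFα was lower in iCre fibroblasts (−0.63, adjusted p = 0.0299) and the TNFα interaction was −1.26 (adjusted p = 0.0236).

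In LacZ fibroblasts *Gch1* was lower with IL-1β than with TNFα by −0.61 on the log2 scale (adjusted p = 0.0489), the opposite order to *Nos2*, a call that was lost without replicate 2, 3 or 4 (adjusted p up to 0.196). bFGF also raised *Gch1* in LacZ fibroblasts, to 7.76, 14.2, 9.74 and 8.61 CPM (log2 fold change 1.61, SE 0.31, adjusted p = 0.0105, a call lost without replicate 1, 3 or 4 at adjusted p-values of 0.05 to 0.0975). In iCre libraries with bFGF it was at 8.72, 10.4, 17.8 and 17 CPM, all above Con (1.49, adjusted p = 0.0594, or 0.00952 with the block). With TGFβ the libraries were at 2.89 to 6.51 CPM in LacZ and 2.81 to 3.82 CPM in iCre, both overlapping Con. Neither TGFβ effect passed, except that the effect in LacZ was 0.96 (adjusted p = 0.0103) without replicate 2.

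The 300 bases around the start of *Gch1* are shown because it was the synthesis gene that both cytokines raised under both viruses (RefSeq, GRCm38.p6, chr14:47189364-47189663, minus strand, 250 bases before to 50 after the start). Capitals mark matches to GGG, any 5 bases and CC, a loose form of the κB motif that NF-κB binds, searched on both strands.
Gch1: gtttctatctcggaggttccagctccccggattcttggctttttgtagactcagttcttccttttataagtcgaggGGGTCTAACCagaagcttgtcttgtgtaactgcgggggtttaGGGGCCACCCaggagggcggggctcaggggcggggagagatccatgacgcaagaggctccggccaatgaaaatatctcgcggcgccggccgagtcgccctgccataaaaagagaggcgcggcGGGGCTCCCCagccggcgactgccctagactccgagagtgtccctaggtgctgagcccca
The 3 matches began at −174, −132 and −10 from the start. Among 32851 such windows, 50.8% held at least 1 match, so that its presence is common. Windows were found for *Gch1*, *Pts*, *Spr* and *Ass1*, 4 of the 8 members, and each held the motif, *Pts* and *Spr* with 1 match. No match to TGANTCA (the AP-1 motif, in 7.81% of windows), TTGCGCAA (a C/EBP palindrome, in 0.183%) or TTCNNNGAA (a STAT-like motif, in 8.3%) was in these 4 windows.

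*Pts* (ENSMUSG00000032067; chr9:50521617-50528724, minus strand), the second step of the cofactor's synthesis, moved the other way. It was at 22.9, 28.7, 25.1 and 25 CPM in LacZ Con and at 7.89, 13.1, 11.6 and 9.85 CPM with TGFβ. In iCre it was at 21.1, 23.5, 24.6 and 22.3 CPM in Con and at 9.13, 11, 8.57 and 8.33 CPM with TGFβ. The TGFβ libraries were below the libraries of every other group. *Pts* fell by 1.24 on the log2 scale in LacZ (SE 0.15, adjusted p = 0.000133) and by 1.29 in iCre fibroblasts (SE 0.11, adjusted p = 1.67e-05; −0.91 after the GC correction, adjusted p = 0.00017). IL-1β and TNFα lowered it less, by 0.43 (adjusted p = 0.00814) and 0.34 (adjusted p = 0.0323) in LacZ, and both calls were lost without replicate 3 or 4 (adjusted p of 0.0674 to 0.145). In iCre fibroblasts the log2 fold changes of −0.33 with IL-1β (adjusted p = 0.05) and −0.30 with TNFα (adjusted p = 0.0427) turned to 0.07 (adjusted p = 0.713) and 0.10 (adjusted p = 0.466) after the GC correction. The first of these calls was lost when any replicate was left out (adjusted p of 0.0601 to 0.187) and the other without replicate 2, 3 or 4 (0.123 to 0.243). With bFGF in LacZ the change was −0.27 (adjusted p = 0.15, or 0.0253 with the block). iCre and LacZ libraries with IL-1β differed by −0.07 (95% interval −0.30 to 0.16), and those with TNFα by −0.12 (−0.36 to 0.12). After the GC correction the differences were 0.38 (adjusted p = 0.0555, or 0.0103 with the block too) and 0.34 (adjusted p = 0.0439, or 0.0571 with the block too), and the TNFα interaction went from 0.03 (adjusted p = 0.944) to 0.43 (adjusted p = 0.0482). The IL-1β interaction went from 0.09 (adjusted p = 0.793) to 0.49 (adjusted p = 0.0612, or 0.00427 with the block too).

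*Spr* (ENSMUSG00000033735; chr6:85130176-85137766, minus strand), which completes the cofactor, had the smallest range, 1.71-fold between the highest and the lowest group mean. TGFβ lowered it in LacZ fibroblasts, from 31.6, 32.8, 34.4 and 31.2 CPM to 28.3, 25, 23.7 and 22.3 CPM (−0.37, SE 0.10, adjusted p = 0.0164, and 0.124 without replicate 3 or 0.0861 without replicate 4). TNFα raised it in iCre fibroblasts, from 30.2, 33.3, 33.7 and 32.8 CPM to 44.6, 39, 43.4 and 43.3 CPM (0.42, SE 0.08, adjusted p = 0.00461). Neither pair of groups overlapped. After the GC correction the rise in iCre was 0.23 (adjusted p = 0.0761). In LacZ the TNFα effect was 0.20 (adjusted p = 0.116) and the difference of IL-1β from TNFα −0.28 (adjusted p = 0.078), with adjusted p-values of 0.0407 and 0.0362 with the block. In iCre fibroblasts TGFβ changed *Spr* by −0.02 (adjusted p = 0.92). The TGFβ interaction was 0.33 (adjusted p = 0.187, or 0.0213 by DESeq2).

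*Slc7a2* (ENSMUSG00000031596; chr8:40862396-40922308, plus strand), the transporter that brings in arginine, was abundant without ligand, rose with IL-1β and TNFα in LacZ fibroblasts and fell with TGFβ under both viruses. In LacZ libraries it was at 251, 98.1, 152 and 160 CPM in Con, at 1324, 793, 1290 and 1254 CPM with IL-1β and at 468, 287, 432 and 437 CPM with TNFα. The 3 groups did not overlap. IL-1β raised it 7.04-fold (log2 fold change 2.82, SE 0.29, adjusted p = 0.000195) and TNFα 2.45-fold (1.29, SE 0.27, adjusted p = 0.00787, and 0.0734 without replicate 3 or 0.0681 without replicate 4). IL-1β exceeded TNFα by 1.52 (adjusted p = 0.00107). The order of the ligands in LacZ fibroblasts was therefore that of *Nos2*.

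In iCre libraries *Slc7a2* was at 193, 79.4, 120 and 132 CPM in Con, at 294, 129, 218 and 229 CPM with IL-1β and at 140, 57.1, 89 and 83.4 CPM with TNFα. Both cytokine groups overlapped with Con, replicate 2 being the lowest library of each group. The IL-1β effect was 0.75 (adjusted p = 0.117, 0.0259 without replicate 2 and 8.08e-06 with the block), and the TNFα effect −0.47 (adjusted p = 0.298, and 0.00147 with the block), a sign opposite to that in LacZ. Against LacZ, *Slc7a2* in iCre fibroblasts was 5.35-fold lower with IL-1β (−2.43, SE 0.26, adjusted p = 0.000336) and 4.39-fold lower with TNFα (−2.11, SE 0.27, adjusted p = 0.000581), with no overlap. The ligand effects differed between the viruses by −2.08 for IL-1β (SE 0.44, adjusted p = 0.00689) and −1.77 for TNFα (SE 0.44, adjusted p = 0.0118). Both interactions lost their call without replicate 3 or 4 (adjusted p of 0.0872 to 0.127). Within iCre fibroblasts IL-1β exceeded TNFα by 1.23 (adjusted p = 0.0712, and 0.000218 with the block), and without ligand the difference of iCre from LacZ was −0.35 (adjusted p = 0.641, and 0.00533 with the block).

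With TGFβ, *Slc7a2* was at 54.4, 64.6, 75.3 and 72.6 CPM in LacZ and at 54.9, 50, 38.3 and 39.5 CPM in iCre libraries. Both sets lay below all Con libraries of their virus. It fell by 1.30 on the log2 scale in LacZ (SE 0.25, adjusted p = 0.00234) and by 1.5 in iCre (SE 0.24, adjusted p = 0.000786). iCre libraries with TGFβ were lower than LacZ by −0.58 (adjusted p = 0.0383), which was −0.33 after the GC correction (adjusted p = 0.424) and did not pass without replicate 3 (adjusted p = 0.278) or 4 (0.261). With bFGF the libraries were at 115, 32.7, 76.1 and 74.3 CPM in LacZ and at 112, 41.9, 61.7 and 64.4 CPM in iCre, each below the Con library of the same number. The changes of −1.14 (adjusted p = 0.0762) and −0.89 (adjusted p = 0.198) passed with the block, at adjusted p-values of 9.3e-05 and 0.000266.

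*Ass1* (ENSMUSG00000076441; chr2:31470207-31520672, plus strand), the rate-limiting gene of arginine regeneration from citrulline, was abundant in all libraries and was highest in iCre fibroblasts with TNFα. In LacZ libraries it was at 145, 98, 165 and 172 CPM in Con and at 182, 154, 187 and 190 CPM with TNFα. In iCre libraries it was at 175, 103, 185 and 176 CPM in Con and at 320, 343, 403 and 403 CPM with TNFα. The iCre libraries with TNFα lay above all 36 other libraries. TNFα raised *Ass1* 2.3-fold in iCre fibroblasts (log2 fold change 1.23, SE 0.18, adjusted p = 0.00103), against 0.30 in LacZ (adjusted p = 0.255, and 0.0161 with the block). The difference of iCre from LacZ with TNFα was 1.06 (SE 0.11, 95% interval 0.82 to 1.30, adjusted p = 0.000223), or 2.06-fold, and 0.81 after the GC correction (adjusted p = 0.000954). As an interaction it was 0.93 (SE 0.26, adjusted p = 0.024), which did not pass after the GC correction (0.68, adjusted p = 0.0939) or without replicate 1, 3 or 4 (adjusted p of 0.0589 to 0.154).

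TGFβ put *Ass1* at 228, 180, 196 and 196 CPM in LacZ and at 314, 233, 277 and 314 CPM in iCre libraries. Each set lay above its Con libraries, and the iCre set above the LacZ set. The rise was 0.85 in iCre (SE 0.18, adjusted p = 0.00411) and 0.48 in LacZ (adjusted p = 0.0551, and 0.0157 with the block). iCre exceeded LacZ by 0.48 (adjusted p = 0.0297), a call lost after the GC correction (0.28, adjusted p = 0.288) and without replicate 1, 3 or 4 (adjusted p of 0.0645 to 0.247). IL-1β, the ligand with the highest *Nos2*, gave no called change of *Ass1* (0.11 in LacZ and 0.17 in iCre), and in iCre fibroblasts IL-1β lay below TNFα by −1.06 (adjusted p = 0.0367, and 0.0567, 0.329 and 0.113 without replicate 1, 3 and 4). With bFGF in LacZ the change was −0.36 (adjusted p = 0.348, and 0.0145 with the block).

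The start of *Ass1* is shown because, with TNFα, *Ass1* was the 1 member called higher in iCre against LacZ (RefSeq, GRCm38.p6, chr2:31470020-31470319, plus strand, capitals as above).
Ass1: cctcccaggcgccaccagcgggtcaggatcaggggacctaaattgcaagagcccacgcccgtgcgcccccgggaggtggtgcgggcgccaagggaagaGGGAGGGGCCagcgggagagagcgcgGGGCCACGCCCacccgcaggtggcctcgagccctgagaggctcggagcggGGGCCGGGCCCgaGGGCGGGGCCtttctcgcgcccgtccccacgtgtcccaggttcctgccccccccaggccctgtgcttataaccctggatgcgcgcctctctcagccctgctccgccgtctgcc
It held 6 matches to the loose κB motif on the 2 strands, of which 4 formed overlapping pairs, in a window of 74.0% GC (60.3% for *Gch1*).

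*Asl* (ENSMUSG00000025533; chr5:130011258-130029247, minus strand), which completes the return of citrulline to arginine, did not follow *Ass1*. It fell with TGFβ in LacZ fibroblasts, from 32.3, 37.2, 41.8 and 30.9 CPM to 21.7, 23.8, 17.9 and 18 CPM (−0.78, SE 0.14, adjusted p = 0.00127), with no overlap. In iCre fibroblasts it fell from 37.2, 32.1, 51.8 and 32.4 CPM to 24.3, 31.5, 23.8 and 24.1 CPM with TGFβ (−0.55, SE 0.16, adjusted p = 0.0236, and above 0.05 without replicate 1, 3 or 4, up to 0.134). With bFGF in LacZ it was at 20.7, 31.2, 17.8 and 17.8 CPM (−0.68, SE 0.19, adjusted p = 0.0486), and with TNFα in iCre at 28.8, 28.7, 25.9 and 25 CPM (−0.47, adjusted p = 0.046). These 2 calls were lost without replicate 1, 3 or 4 too (adjusted p of 0.156 to 0.265 and of 0.0932 to 0.194). *Asl* rose in none of the ligand comparisons that passed. With the block, TNFα in LacZ (−0.30, adjusted p = 0.0846 without it), IL-1β in iCre (−0.26, adjusted p = 0.438) and iCre against LacZ with TGFβ (0.32, adjusted p = 0.199) also passed, at adjusted p-values of 0.00777, 0.0142 and 0.0304. iCre against LacZ with TNFα was −0.07 (adjusted p = 0.668), and −0.33 after the GC correction (adjusted p = 0.0395).

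**Figure D2:**
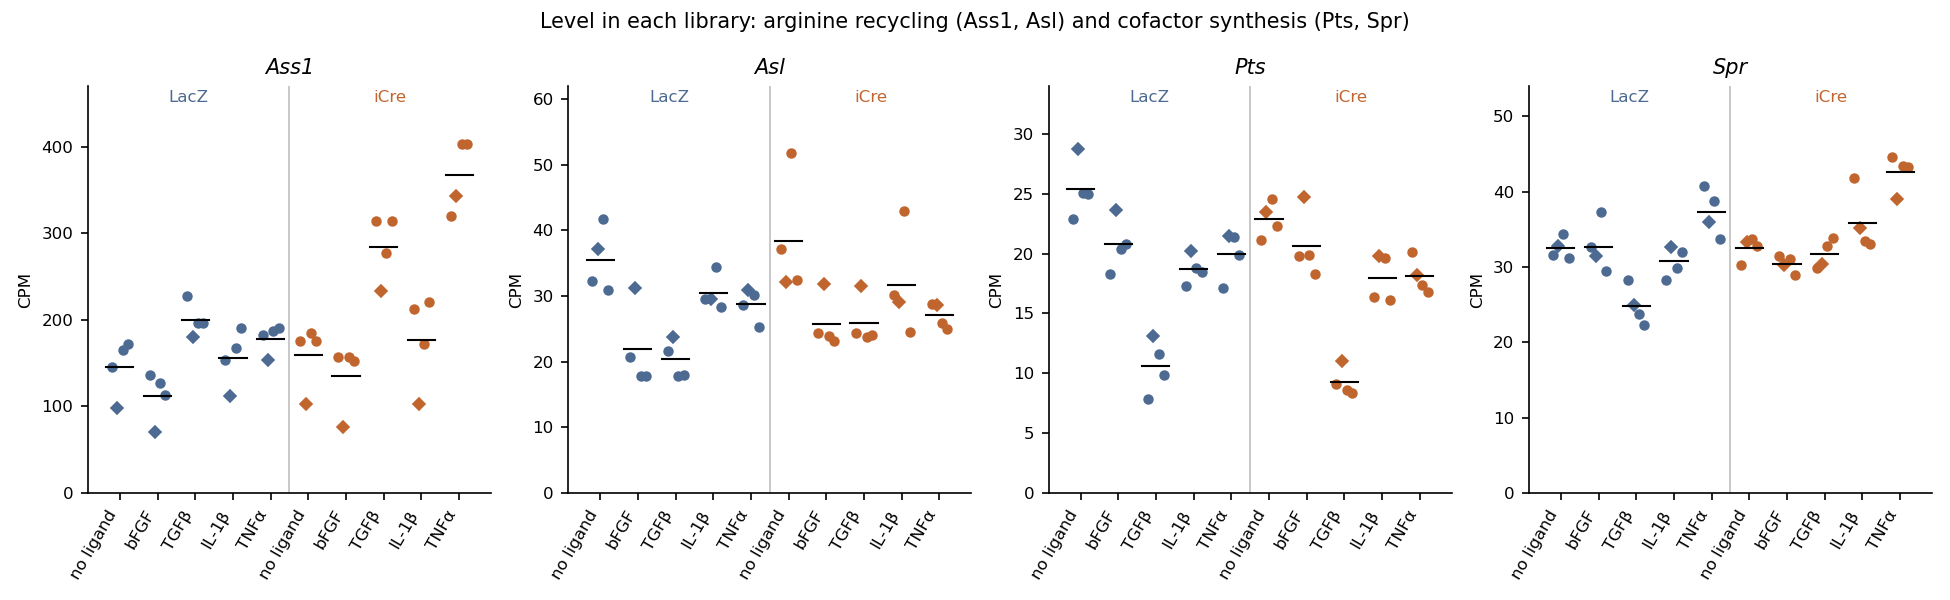
*Ass1*, *Asl*, *Pts* and *Spr* in each library, by virus and ligand, in TMM-normalised CPM on linear axes. Points are libraries, diamonds are replicate 2 and black bars are group means; the 4 iCre libraries with TNFα hold the highest *Ass1* values (320 to 403 CPM), and *Pts* is lowest in the TGFβ libraries of both viruses.

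Counted over the 8 members, IL-1β raised 3 in LacZ fibroblasts (*Nos2*, *Gch1* and *Slc7a2*) and lowered 1 (*Pts*), where 11.6% of all genes tested were called higher and 10.4% lower. TNFα raised 3 (*Nos2*, *Gch1* and *Slc7a2*) and lowered 1 (*Pts*), beside 11.1% and 11.2% of all genes. With the block TNFα raised 5 and lowered 3, where 8893 of 25210 genes were called in either direction. TGFβ lowered 4 (*Pts*, *Spr*, *Slc7a2* and *Asl*), beside 20.3% of all genes (18% rose). bFGF raised *Gch1* and lowered *Asl*, beside 7.35% and 5.24% of all genes. With the block bFGF raised 1 member and lowered 5, where 6661 of 25210 genes were called in either direction. The median log2 fold change of the members was 0.02 with IL-1β, 0.25 with TNFα, −0.55 with TGFβ and −0.32 with bFGF, beside −0.10, −0.08, −0.17 and −0.02 over all genes tested. These comparisons share the LacZ Con libraries.

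In iCre fibroblasts IL-1β raised 2 members (*Nos2* and *Gch1*) and lowered *Pts*, beside 9.55% and 7.27% of all genes. With the block IL-1β raised 3 and lowered 2, where 8065 of 25210 genes were called in either direction. TNFα raised 3 (*Gch1*, *Ass1* and *Spr*) and lowered 2 (*Pts* and *Asl*), beside 15.2% and 13.4%, and TGFβ raised 1 (*Ass1*) and lowered 3 (*Pts*, *Slc7a2* and *Asl*), beside 19.2% and 19.8%. With bFGF edgeR called 0 members, beside 2.43% of all genes. There 3 had an unadjusted p under 0.05, beside 4400 of 25210 genes, DESeq2 called 2, beside 1998, and the block called 2, beside 3273. The medians were 0.46 with IL-1β, 0.79 with TNFα, −0.28 with TGFβ and −0.18 with bFGF, beside 0.00, −0.04, −0.10 and 0.00 over all genes. These comparisons share the iCre Con libraries.

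Between iCre and LacZ, 2 members were lower with IL-1β (*Nos2* and *Slc7a2*), beside 9.27% of all genes (7.22% were higher). With TNFα 2 were lower (*Nos2* and *Slc7a2*) and 1 higher (*Ass1*), beside 13.3% and 15.3%, and with TGFβ *Slc7a2* was lower and *Ass1* higher, beside 5.89% and 2.51%. In Con edgeR called 0 members, beside 0.0754% of all genes. There 1 had an unadjusted p under 0.05, beside 3795 of 25210 genes. DESeq2 called 0, beside 1346 genes, and the block 1, beside 2917. With bFGF edgeR called 0 members, beside 0% of all genes. Here 1 had an unadjusted p under 0.05, beside 2828 genes, DESeq2 called 0, beside 481, and the block 1, beside 2476. The interaction passed for 1 member with IL-1β (*Slc7a2*), beside 7.92% of all genes, and for 2 with TNFα (*Slc7a2* and *Ass1*), beside 16.5%. With the block the TNFα interaction passed for 4 members, beside 6424 of 25210 genes. By edgeR without the block, the TGFβ interaction passed for 0 members, beside 4.58% of all genes. There 2 had an unadjusted p under 0.05, beside 3786 genes, and DESeq2 called 1, beside 2187. The bFGF interaction passed for 0, beside 0%, with 1 at an unadjusted p under 0.05, beside 768 genes, and 0 by DESeq2, beside 0 genes. With IL-1β, 2 members were higher (*Nos2* and *Slc7a2*) and 1 lower (*Gch1*) than with TNFα in LacZ, beside 4.97% and 4.93% of all genes. In iCre 1 was higher (*Nos2*) and 1 lower (*Ass1*), beside 1.11% and 1.83%.

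**Figure D3:**
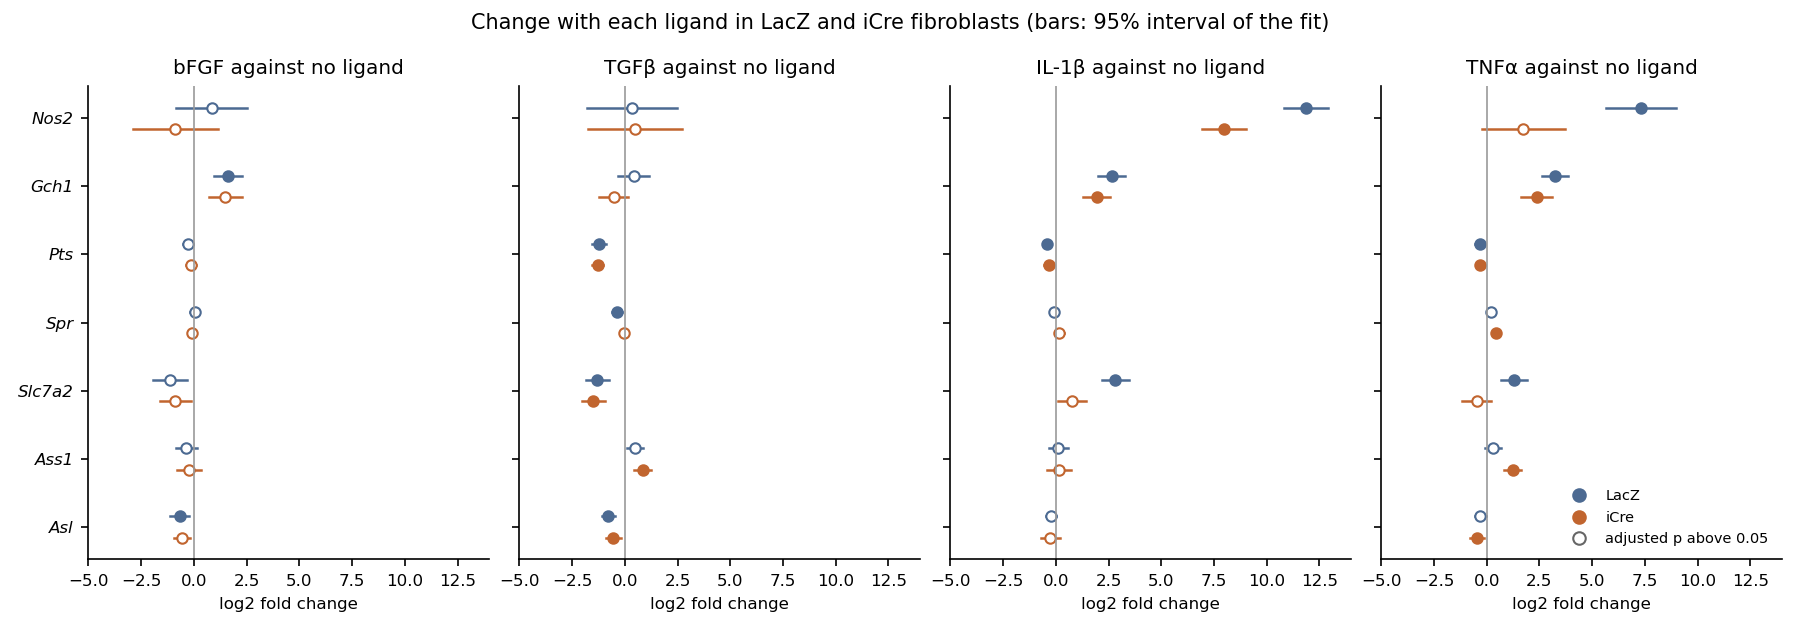
Log2 fold change of each ligand against Con for 7 members, LacZ in blue and iCre in orange, with 95% confidence intervals of the quasi-likelihood fit. Filled points have an adjusted p of at most 0.05 and open points a higher one; *Gch1* with IL-1β and TNFα is raised under both viruses, whereas *Slc7a2* with TNFα is 1.29 in LacZ and −0.47 in iCre.

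**Figure D4:**
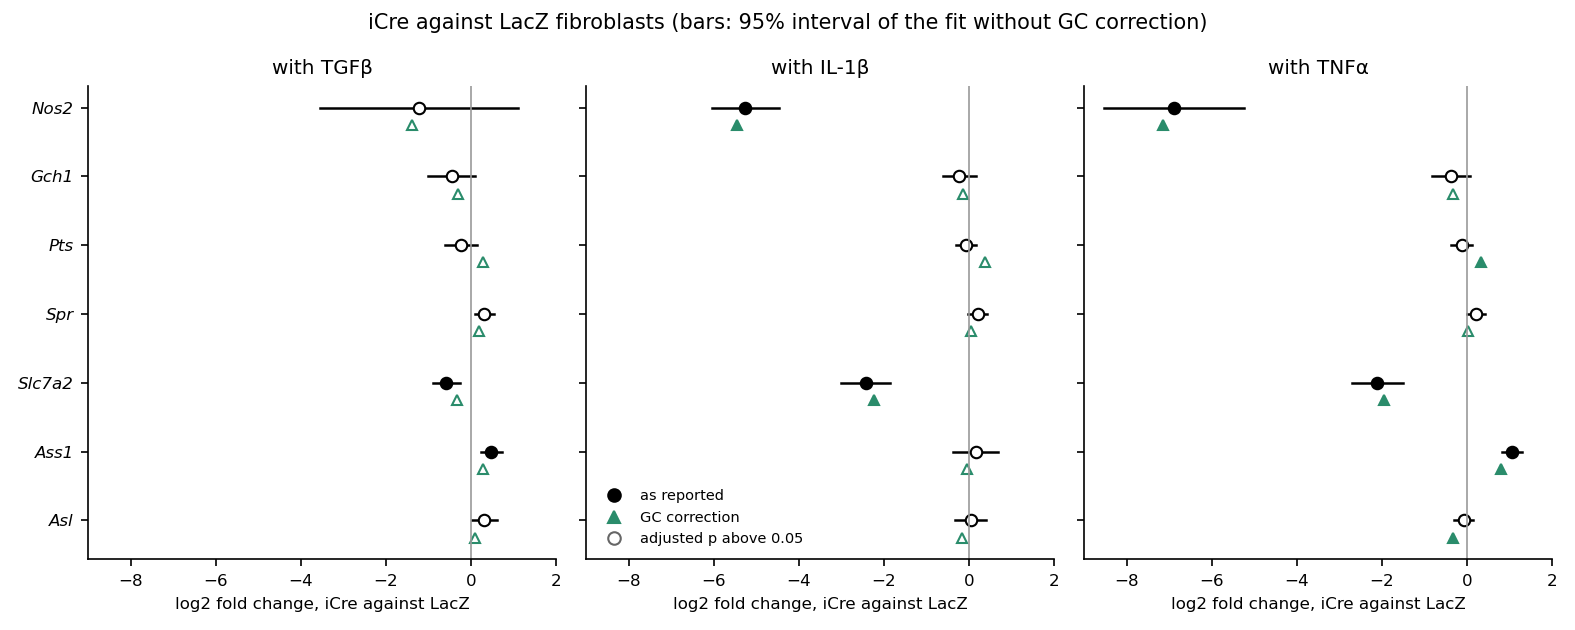
Log2 difference of iCre from LacZ fibroblasts with TGFβ, IL-1β and TNFα for 7 members, with 95% confidence intervals. Circles are the fit as reported, triangles the fit after the GC correction and open symbols an adjusted p above 0.05; *Nos2* and *Slc7a2* lie far below 0 with both cytokines in either fit, and *Ass1* with TNFα is 1.06 as reported and 0.81 corrected.

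Per length, the order of the members changed with the ligand. In LacZ Con, *Ass1* was the most abundant at 60.1 ± 13.8 CPM per kb of exon (SD, n = 4), followed by *Slc7a2* at 18.1 ± 6.95, *Spr* at 9.17, *Asl* at 7.36 and *Pts* at 4.17. *Gch1* was at 0.537 and *Nos3* at 0.0839 CPM per kb. In LacZ fibroblasts with IL-1β, *Slc7a2* reached 128 ± 27.3 and *Nos2* 80.9 ± 26.5 CPM per kb (SD, n = 4). *Nos2* was at 3.45 ± 2.13 CPM per kb with TNFα in LacZ and at 2.14 ± 0.906 with IL-1β in iCre. *Ass1* reached 152 ± 17.5 CPM per kb in iCre fibroblasts with TNFα. Over the 10 groups, *Nos2* in LacZ with IL-1β, then LacZ with TNFα and iCre with IL-1β, which overlapped, stood above the other 7 groups, which overlapped with their neighbours. For *Gch1*, the 6 groups with a cytokine or bFGF overlapped with their neighbours in the order and stood above the 4 Con and TGFβ groups.

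The other genes of the pathway were taken from 4 lists, and their counts stand beside the shares of all genes tested that were called. In LacZ fibroblasts these were 18% higher and 20.3% lower with TGFβ, 11.6% and 10.4% with IL-1β and 11.1% and 11.2% with TNFα. In iCre fibroblasts they were 19.2% and 19.8% with TGFβ, 9.55% and 7.27% with IL-1β and 15.2% and 13.4% with TNFα. For iCre against LacZ they were 2.51% and 5.89% with TGFβ, 7.22% and 9.27% with IL-1β and 15.3% and 13.3% with TNFα. Of 7 genes for cationic amino acid transport, TGFβ raised 6 in LacZ fibroblasts and 7 in iCre, the median log2 fold changes being 1.36 and 1.24 (−0.17 and −0.10 over all genes). *Slc7a1*, the widely expressed transporter CAT-1, rose from 37.5 to 279 CPM in LacZ (2.91, adjusted p = 6.39e-06), and *Slc3a2*, the shared heavy chain of amino acid exchangers, from 112 to 348 CPM (1.65, adjusted p = 7.82e-06). *Slc7a2* went the opposite way. IL-1β raised 5 of the 7 and lowered 1 in LacZ fibroblasts, beside 11.6% and 10.4% of all genes, *Slc7a1* reaching 82.1 CPM (1.14, adjusted p = 0.0127). TNFα raised 2, *Slc7a1* (1.43, adjusted p = 0.00229) and *Slc7a7* from 8.32 to 18.9 CPM (1.18, adjusted p = 0.000719). With the block TNFα raised 4, where 8893 of 25210 genes were called in either direction. In iCre fibroblasts IL-1β raised 2 and edgeR called 0 with TNFα. There 1 had an unadjusted p under 0.05 (9878 of all genes), DESeq2 called 1 (8081) and the block called 2 (9337). For iCre against LacZ, edgeR called 0 of these 7 transporters with TGFβ, IL-1β or TNFα. In each, 1 had an unadjusted p under 0.05 (5551, 7502 and 9750 of all genes). DESeq2 called 0, 1 and 1 (3788, 5549 and 8020), and the block 1, 1 and 2 (4463, 7118 and 8297). With the GC correction and the block, 0, 3 and 2 passed, all lower in iCre (1346, 5281 and 7038 of all genes). *Slc7a2* passed in each with edgeR, though not with TGFβ after the GC correction. The TNFα interaction was called for *Slc7a7* as well (−0.99, adjusted p = 0.00719). Its means went from 8.32 to 18.9 CPM in LacZ and from 12.2 to 13.7 CPM in iCre.

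Of 5 genes that recycle or control tetrahydrobiopterin, TGFβ lowered 4 in LacZ and 3 in iCre fibroblasts (medians −0.77 and −0.62). Carbonyl reductase *Cbr1* went from 37.2 to 19.3 CPM (−0.93, adjusted p = 3.37e-05) and *Qdpr*, which regenerates the cofactor after use, from 31.4 to 24.3 CPM (−0.35, adjusted p = 0.0105) in LacZ. In LacZ fibroblasts IL-1β lowered 1 of the 5, *Pcbd2*, beside 10.4% of all genes, and TNFα lowered 2, beside 11.2%. With the block each lowered 4, where 8255 and 8893 of 25210 genes were called in either direction. With TNFα, iCre exceeded LacZ fibroblasts for 3 of the 5 (median 0.51, 0.00 over all genes). *Gchfr*, the feedback regulator of GTP cyclohydrolase, had a mean of 0.31 in LacZ and of 1.4 CPM in iCre (2.21, adjusted p = 0.00438), and *Cbr1* of 27.3 and 38.3 CPM (0.51, adjusted p = 0.00272).

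Of 13 genes for signalling by nitric oxide and its control, IL-1β lowered 5 in LacZ fibroblasts, with a median of −0.75 (−0.10 over all genes). With the block 1 was higher and 7 lower, where 8255 of 25210 genes were called in either direction. *Gucy1a2*, a subunit of the nitric oxide receptor guanylate cyclase, fell from 5.35 to 1.61 CPM (−1.71, adjusted p = 0.00132), and *Cav1*, caveolin 1, which binds *Nos3* protein, from 354 to 178 CPM (−0.98, adjusted p = 0.0028). TGFβ raised 1 and lowered 6 in LacZ fibroblasts. *Ddah1*, which degrades methylarginine inhibitors of the synthases, rose from 21.4 to 241 CPM (3.51, adjusted p = 7.34e-06), and *Gucy1a1* fell from 160 to 18.9 CPM (−3.07, adjusted p = 0.00403). With TNFα, iCre exceeded LacZ fibroblasts for 2 of the 13 and was below them for 2, beside 15.3% and 13.3% of all genes. With the block it was 2 and 5, where 8297 of 25210 genes were called in either direction. Among those lower was *Prkg1*, the cGMP-dependent kinase, with means of 29.5 in LacZ and 6.03 CPM in iCre (−2.26, adjusted p = 0.00369, with an interaction of −1.98, adjusted p = 0.0105). Its libraries lay at 20.3 to 39.4 CPM in LacZ and 3.02 to 12.4 CPM in iCre (median 4.36).

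Of 15 genes for arginine and ornithine use, 13 had enough counts to be tested, *Agmat* and *Otc* being the exceptions. TGFβ raised 5 and lowered 3 in LacZ fibroblasts, with ornithine decarboxylase, *Odc1*, the entry to polyamines, going from 47.8 to 280 CPM (2.57, adjusted p = 4.33e-06) and spermidine synthase, *Srm*, from 17.8 to 113 CPM (2.69, adjusted p = 1.25e-06). IL-1β raised 3 and lowered 2, *Odc1* to 118 CPM (1.31, adjusted p = 0.000196) and *Gamt*, of creatine synthesis, from 19.6 to 6.18 CPM (−1.65, adjusted p = 0.000332). TNFα raised 3 and lowered 4 in LacZ, beside 11.1% and 11.2% of all genes. With TNFα, iCre exceeded LacZ fibroblasts for 8 of the 13 and was below them for 3 (median 0.53, 0.00 over all genes). *Odc1* had means of 54.2 in LacZ and 285 CPM in iCre (2.41, SE 0.46, adjusted p = 0.00392, with an interaction of 2.35, adjusted p = 0.00575). Its iCre libraries were widely spread, at 79.4 to 538 CPM, against 48.6 to 62.8 CPM in LacZ.

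The genes whose group means followed those of a member most closely were sought for 3 members. Their group means spanned at least 4-fold and reached at least 1 CPM in 1 group or more, as did those of the 14142 genes searched. Likeness was Pearson's r of mean log2 CPM over the 10 groups, which share virus and ligand. Outside LacZ with IL-1β or TNFα and iCre with IL-1β, *Nos2* had means of 0.019 to 0.168 CPM. Its r values rest on few counts in those groups. For *Nos2* they were *Camp* (0.974), *Tcp10b* (0.973), *Mmp8* (0.970), *Secisbp2l* (0.969) and *Saa3* (0.966). For *Slc7a2* they were *Pcx* (0.982), *Tlr5* (0.980), *Cxcl5* (0.973), *Ddhd1* (0.972) and *Cyp7b1* (0.969). For *Gch1* they were *Itpripl2* (0.986), *Ccl2* (0.965), *Tnfaip2* (0.951), *AI839979* (0.951) and *Steap2* (0.948). Among the members themselves, *Nos2* went with *Slc7a2* (r = 0.92), less with *Gch1* (r = 0.64) and not with *Ass1* (r = −0.14).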

How the data were processed

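RNA of 40 samples, 4 in each of 10 groups of virus and ligand, was sequenced in single-end reads. The counts that the authors deposited are whole reads for each Ensembl gene, obtained with FastQC 0.10.1, STAR and HTSeq 0.10.0 on mm10 (GRCm38), without normalization and without pooling. For the library kit, TruSeq Stranded mRNA stands in the methods and NEBNext Ultra II in the labels, and strand setting and annotation release are not given in the sources used here. Identifiers were matched to GENCODE M21 (52133 genes with 99.59% of the counts). Between 25360947 and 66160732 reads per library were counted, without molecular identifiers, so that counting intervals (95%) cover counting error only. Groups were taken from the labels.

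Genes with at least 10 counts over the 40 libraries were kept. Tests were quasi-likelihood tests (edgeR 4.0.16, R 4.3.3; TMM factors of 0.793 to 1.14, only the libraries compared, non-legacy dispersion fit), with Benjamini-Hochberg adjustment over 25210 genes. The non-legacy fit was chosen on simulated data. Alternatives were DESeq2 1.42.0, RLE normalization, no filter, filterByExpr, leaving out each replicate number, a replicate block, all 40 libraries in a single fit, a GC correction alone or with the block, and, chosen after seeing the data, the legacy fit. Libraries of the same replicate number deviated together from their group means in 15 of 15 comparisons (lowest r 0.30, mean 0.55, against −0.15 for other numbers, across 13090 genes), so that the numbers were taken to pair the samples in the block. The main tests did not use this pairing. Of 10 genes listed 8 are described, and some items are not reported here. Named genes were these members, at most 3 genes per pathway list and comparison that passed with the largest change and a mean of at least 1 CPM, the 5 genes most like each member whose group means spanned at least 4-fold, *Map3k7* and cell type markers. Members and lists were chosen with earlier results of these data known.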

Additional observations from a re-analysis of the deposited data

Results flagged for a closer look

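In 80 groups of 4 libraries (8 genes in 10 groups), 1 library lay far from the other 3 by Dixon's criterion in 6, where chance gives about 1 in 20, and each time it was replicate 2. *Nos2* in iCre with TNFα was at 0.333 CPM (14 counts), the others at 0.0389 to 0.0649. *Ass1* was at 103 CPM in iCre Con (others 175 to 185) and at 75.9 CPM in iCre with bFGF (152 to 157). *Asl* was at 31.8 CPM in iCre with bFGF (23.2 to 24.3) and at 31.5 CPM in iCre with TGFβ (23.8 to 24.3). *Slc7a2* was at 793 CPM in LacZ with IL-1β (1254 to 1324).

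A ligand effect differed between iCre and LacZ fibroblasts by an interaction test for 3 results: *Slc7a2* with IL-1β (−2.08), *Slc7a2* with TNFα (−1.77) and *Ass1* with TNFα (0.93).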

How the results depend on the processing

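Of the 41 calls on the 8 members, 22 passed under all 13 alternatives. The replicate block lost 0 calls and added 21, which stand beside the results, and it changed no other call. It moved the number of members called to 6 for bFGF and 8 for TNFα in LacZ, 2 for bFGF and 5 for IL-1β in iCre, 1 for iCre against LacZ in Con and 1 with bFGF, and 4 for the TNFα interaction. In the same order, the block called 6661, 8893, 3273, 8065, 2917, 2476 and 6424 of all 25210 genes. DESeq2 called 2 for bFGF in iCre, 1 for the TGFβ interaction and 2 for the IL-1β interaction. All 40 libraries in a single fit called 2 for bFGF in iCre and 1 for iCre against LacZ with TGFβ. Without a filter 3 were called for TNFα in iCre. The GC correction called 3 for TNFα in iCre, and 0 and 5 for iCre against LacZ with TGFβ and TNFα. With the GC correction and the block, 5 and 8 were called for bFGF and TNFα in LacZ, 2 for bFGF in iCre, 1, 1 and 1 for iCre against LacZ in Con, bFGF and TGFβ, 5 for IL-1β against TNFα in LacZ, and 2 and 4 for the IL-1β and TNFα interactions.

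Leaving out 1 replicate number gave 0 to 4 members for bFGF, 3 to 6 for TGFβ, 3 to 4 for IL-1β and 2 to 4 for TNFα in LacZ, 0 to 2 for bFGF, 3 to 4 for TGFβ, 2 to 3 for IL-1β and 3 to 5 for TNFα in iCre, 0 to 2 for iCre against LacZ with TGFβ and 3 to 4 with TNFα, 2 to 3 and 0 to 3 for IL-1β against TNFα in LacZ and iCre, and 0 to 1 and 0 to 3 for the IL-1β and TNFα interactions. Among values that passed in either fit, the direction turned for *Pts* alone: with the GC correction it was 0.07 for IL-1β and 0.10 for TNFα in iCre, the same with the block, and iCre against LacZ was 0.34 with TNFα (GC correction) and 0.38 with IL-1β (GC correction and block). The GC correction by construction removes a trend on GC content; the cause of the other moves was not tested. Few counts limit *Nos3* and, outside the cytokine groups, *Nos2*.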

Other observations

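Of 8 leukocyte markers, 2 passed with IL-1β in LacZ fibroblasts. *Cd14* rose from 6.02 to 20.5 CPM (log2 fold change 1.78, adjusted p = 0.00172) and *Csf1r* from 6.18 to 11.2 CPM (0.88, adjusted p = 0.0391), both by edgeR's quasi-likelihood test. The others did not pass: *Itgam* went from 0.574 to 1.59 CPM (adjusted p = 0.0944, or 0.000656 with the block), *Fcgr1* from 0.349 to 0.916 CPM (adjusted p = 0.198, or 0.00685), and among the rest were *Lyz2* (76.4 and 75.4 CPM), *Ptprc* (1.27 and 1.28 CPM) and *Adgre1* (3.7 and 2.41 CPM; adjusted p = 0.359, or 0.00777 with the block). *Cd14* with IL-1β was lower in iCre than in LacZ fibroblasts (−0.89, adjusted p = 0.0216), and the other markers did not pass, with *Itgam* at −1.79 (adjusted p = 0.103) and *Cd68* at 0.57 (adjusted p = 0.146). With TNFα *Cd68* was higher in iCre (1.09, adjusted p = 0.00518). *Ptprc*, the pan-leukocyte marker, lay between 0.0952 and 2.08 CPM over the 40 libraries. The part of these cells in the results on *Nos2* was not tested.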
